A study of Mus musculus with 8 samples.

Results

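The 10 named genes of phosphatidylcholine and phosphoethanolamine metabolism were followed across the livers of mice given a high-fat diet, arsenite, both or neither. Each was looked up by symbol in the platform annotation, and 9 of the 10 had a probe group on the array, called a transcript cluster, out of 35556 clusters and 19939 named genes in all. Etnppl was selected on its difference between HFD and LFD, and Gpcpd1 was selected on its difference between LFD+As and LFD. Their differences are therefore given as a description, without a p-value, wherever a comparison shares arrays with the one that chose them. The other 8 genes were chosen by their place in the pathway, with earlier results of these data known. Etnk2 was not analysed here.

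The study exposed 40 male C57BL/6J mice, and each of its 8 Mouse Gene 1.0 ST arrays (Affymetrix) measured liver RNA pooled from 5 of them. HFD+As mice ate a diet with 42% of calories from fat and drank deionized water holding sodium arsenite at 3 mg of arsenic per litre. HFD mice ate the same diet with deionized water alone. LFD+As mice ate a diet with 13% of calories from fat and drank the arsenite water, and LFD mice ate that diet with deionized water alone. Each group had 10 mice in 2 pools, called replicate 1 and replicate 2, and the exposure lasted 10 weeks per the protocols, while a source label gives 90 days. The p-values here therefore rest on the spread between pools, shared in part over genes, and not on that between mice. Only male mice of 1 strain were used. The design asks what each exposure does alone and what they do together.

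Phosphatidylcholine and phosphatidylethanolamine are the main phospholipids of liver membranes and of the surface of secreted lipoproteins. In the Kennedy pathway choline and ethanolamine are phosphorylated by kinases, activated with CTP by cytidylyl-transferases, and joined to diacylglycerol by phosphotransferases. The liver has a further route in which PEMT methylates phosphatidylethanolamine to phosphatidylcholine. Breakdown runs the other way: GPCPD1 frees choline from glycerophosphocholine, and ETNPPL removes phosphoethanolamine, the ethanolamine intermediate of the pathway.

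Etnppl, the phosphoethanolamine lyase gene, was lower in HFD livers than in all other groups. In HFD+As livers its signal lay between HFD and the low-fat groups, but the difference from LFD+As did not pass the test. Gpcpd1 was lower in all exposed groups than in LFD by about the same amount. Chka, a choline kinase gene, fell in HFD+As livers relative to LFD and to LFD+As livers. No comparison passed the test for the other 6 members.

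Values are log2 signals, so a difference of 1 is a doubling. Pearson r between arrays was 0.992 to 0.995 within groups and 0.984 to 0.995 between groups, across genes, which are not independent replicates. Both HFD+As arrays stood apart in how signals followed gene length. Spearman's rho between the span of a gene on the genome and its deviation on an array from its mean over the 8 arrays was -0.45 and -0.29 in HFD+As, 0.24 and -0.14 in HFD, 0.22 and 0.35 in LFD+As, and 0.34 and 0.14 in LFD. The median difference over the 11963 tested genes was -0.095 for HFD+As minus LFD, -0.125 for HFD+As minus HFD and -0.088 for HFD+As minus LFD+As. With quantile normalization these medians were -0.005, -0.002 and -0.005. Of the genes called for HFD+As minus LFD, 77.5% were lower, and 52.4% with quantile normalization. The HFD+As differences printed below for members were also computed with the span trend removed and with quantile normalization. Such a value is given where either setting moved the printed difference by over 1.5 times or ended a call. Differences that are not printed were not covered by this rule. The 6 hepatocyte markers with a cluster, of 8 listed, averaged 13.86 to 13.94 on HFD+As arrays and 13.92 to 14.04 on HFD arrays. They averaged 14.023 to 14.032 on LFD+As arrays and 14.019 to 14.025 on LFD arrays. The 6 sinusoidal endothelium markers averaged 8.95 to 9.03 on HFD+As arrays, 9.20 to 9.65 on HFD arrays, 9.29 to 9.34 on LFD+As arrays and 9.28 to 9.48 on LFD arrays, and 3 of 6 were called lower in HFD+As than in LFD. Stellate cell markers averaged 9.10 to 9.29 on HFD+As arrays, 9.33 to 9.46 on HFD arrays, 9.36 to 9.44 on LFD+As arrays and 9.41 to 9.45 on LFD arrays, with 1 of 6 called lower in HFD+As than in LFD. Macrophage markers averaged 9.21 to 9.44 on HFD+As arrays, 9.61 to 9.79 on HFD arrays, 9.29 to 9.55 on LFD+As arrays and 9.43 to 9.51 on LFD arrays. Of the 10, 1 was called higher and 1 lower for HFD+As minus LFD, and 2 lower for HFD+As minus HFD. For the endothelial list 1 of 6 was called lower against HFD and 3 of 6 against LFD+As. Among the other lists, 1 of 6 hepatocyte markers was called lower in HFD+As than in LFD and 1 of 2 tested neutrophil markers higher. In that comparison 0 of 8 tested markers of lymphocytes, cholangiocytes, adipocytes and exocrine pancreas passed. Against LFD+As, 1 of 2 tested cholangiocyte markers was called lower and 1 of 2 tested neutrophil markers higher. In RNA of whole liver, fewer cells of a type and less RNA per cell cannot be told apart, and the part of these markers in the members' values was not tested.

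**Figure D1:**
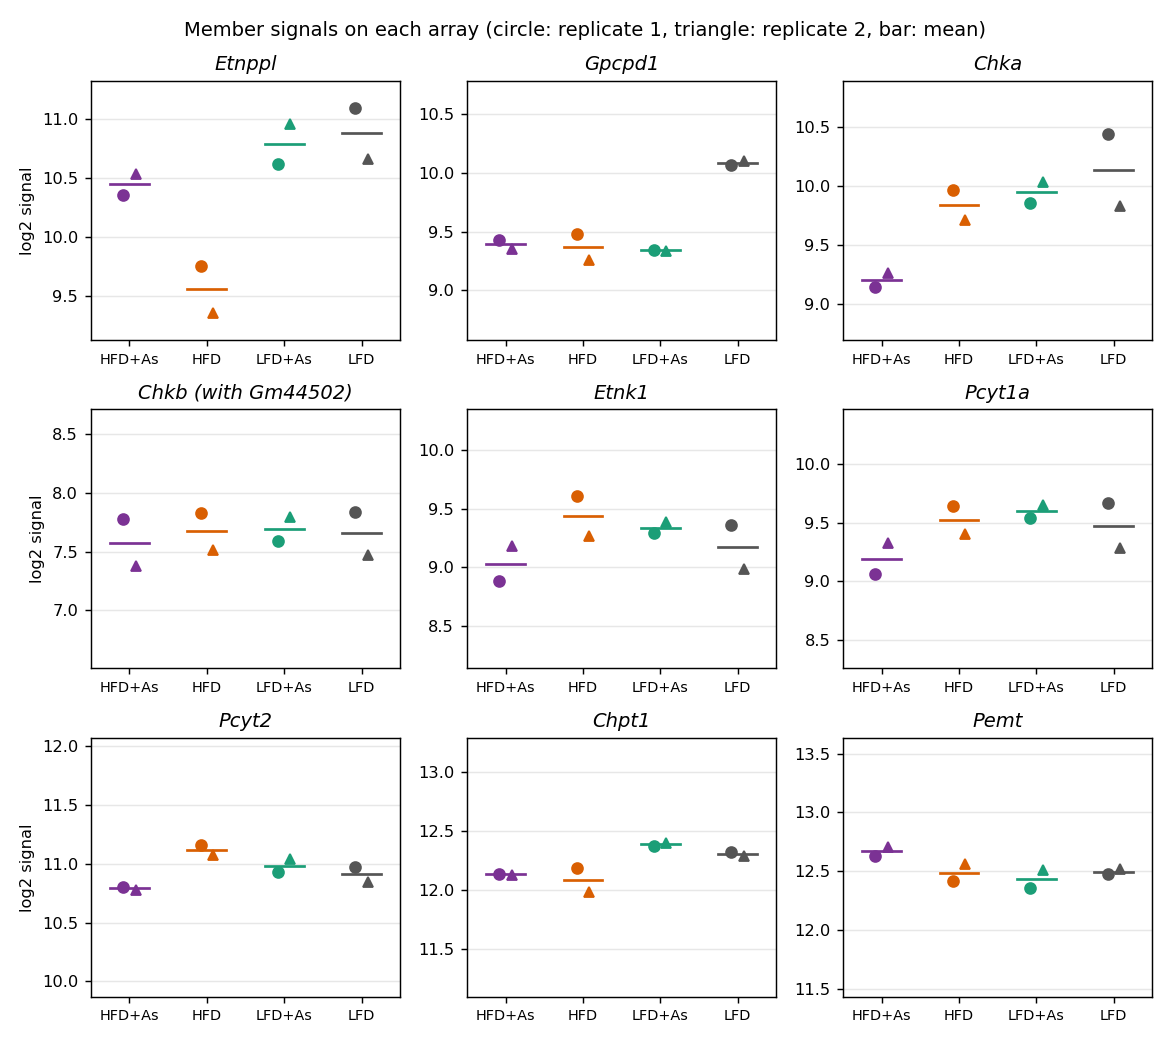
Log2 signal of each member on each array (y axis, log2 signal, each panel covering the same range) in the 4 groups (x axis). Circles are replicate 1, triangles replicate 2 and bars the mean of the pools. Etnppl is lowest in HFD, at 9.76 and 9.36, Gpcpd1 is highest in LFD, at 10.07 and 10.10, and Chka is lowest in HFD+As, at 9.14 and 9.26.

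Etnppl encodes ethanolamine-phosphate phospho-lyase, which splits phosphoethanolamine into ammonia, phosphate and acetaldehyde. The gene lies at chr3:130617448-130635750 (GRCm38.p6). Its signals were 10.36 and 10.54 in the HFD+As pools, 9.76 and 9.36 in the HFD pools, 10.62 and 10.96 in the LFD+As pools, and 11.10 and 10.67 in the LFD pools. Both HFD pools lay below all others, the HFD+As pools lay between these and the low-fat pools without overlap, and the LFD+As and LFD pools overlapped. The mean was lower by 1.32 in HFD than in LFD (SE 0.17, 2.5-fold), which is the difference that chose the gene. HFD+As stood 0.89 above HFD (SE 0.17, 1.86-fold) and, on the deposited scale, 0.43 below LFD (SE 0.17). LFD+As differed from LFD by -0.09 (SE 0.17). The arsenite difference on the high-fat diet exceeded that on the low-fat diet by 0.99 (SE 0.25). These differences use the HFD or LFD arrays that chose Etnppl, and no test is given. The comparison of HFD+As with LFD+As shares no array with that choice, and there the difference was -0.34 (SE 0.17, 95% interval -0.71 to 0.036, limma adjusted p = 0.224), and -0.21 with quantile normalization. With 1 array left out, HFD minus LFD ranged from -1.54 to -1.11 and HFD+As minus HFD from 0.69 to 1.09. HFD+As minus LFD ranged more widely, from -0.65 to -0.22, as did HFD+As minus LFD+As, from -0.51 to -0.17. Quantile normalization gave 1.05 for HFD+As minus HFD.

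RefSeq gives 2 promoter windows for Etnppl (GRCm38.p6), each from 250 bases before to 50 bases after a start of the gene. The one at the gene's outermost start is shown because this gene had the widest range over the arrays of all members, 1.74 log2 units. It lies at chr3:130617198-130617497 on the plus strand. Capitals mark matches to the GC box, GGGCGG, searched on both strands.
Etnppl: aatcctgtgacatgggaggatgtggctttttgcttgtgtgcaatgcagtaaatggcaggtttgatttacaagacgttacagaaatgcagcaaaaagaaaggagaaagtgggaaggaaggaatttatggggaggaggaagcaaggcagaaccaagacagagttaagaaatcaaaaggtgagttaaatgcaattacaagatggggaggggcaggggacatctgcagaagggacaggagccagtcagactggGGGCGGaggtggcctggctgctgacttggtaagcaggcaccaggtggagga
The window holds 1 GC box, which begins 1 base before the start, and 2 CpG sites. The CCAAT box, the E-box with the letters CACGTG, the nuclear receptor half-site with the letters AGGTCA and the TATA box with the letters TATAAA were searched on both strands, and none was found in these letters. The second window, chr3:130617325-130617624, overlaps the first and holds the same GC box, 128 bases before its own start, and 1 half-site on the reverse strand. Of 32851 RefSeq windows of the same length, 35.7% hold the GC box, 37.4% the CCAAT box, 7.2% the E-box, 16.3% the half-site and 13.6% the TATA box, and the median window has 7 CpG sites. A match is a description of the sequence and says nothing on binding.

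Gpcpd1 encodes a glycerophosphodiesterase that releases choline and glycerol 3-phosphate from glycerophosphocholine, a product of complete deacylation of phosphatidylcholine. It lies at chr2:132529082-132578248. Its signals were 9.43 and 9.35 in the HFD+As pools, 9.48 and 9.26 in the HFD pools, 9.34 and 9.34 in the LFD+As pools, and 10.07 and 10.10 in the LFD pools. Every exposed pool lay below both LFD pools, and the 6 exposed pools lay between 9.26 and 9.48. The gene was lower by 0.74 in LFD+As than in LFD (SE 0.12, 1.67-fold), the difference that chose it. It was lower by 0.72 in HFD and by 0.69 in HFD+As than in LFD (SE 0.12 for both), without a test, since all 3 comparisons share the LFD arrays. HFD+As minus HFD uses none of the arrays that chose the gene: the difference was 0.02 (SE 0.12, 95% interval -0.23 to 0.28, limma adjusted p = 0.916). HFD+As minus LFD+As was 0.05, and 0.20 with quantile normalization. With any 1 array left out the differences from LFD ranged from -0.76 to -0.73 for LFD+As, from -0.83 to -0.61 for HFD and from -0.73 to -0.66 for HFD+As. Quantile normalization gave -0.56 for HFD+As minus LFD and 0.20 for HFD+As minus HFD, which was 0.11 with the span trend removed. The 3 differences from LFD rest on the same 2 LFD pools and are not independent of each other.

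**Figure D2:**
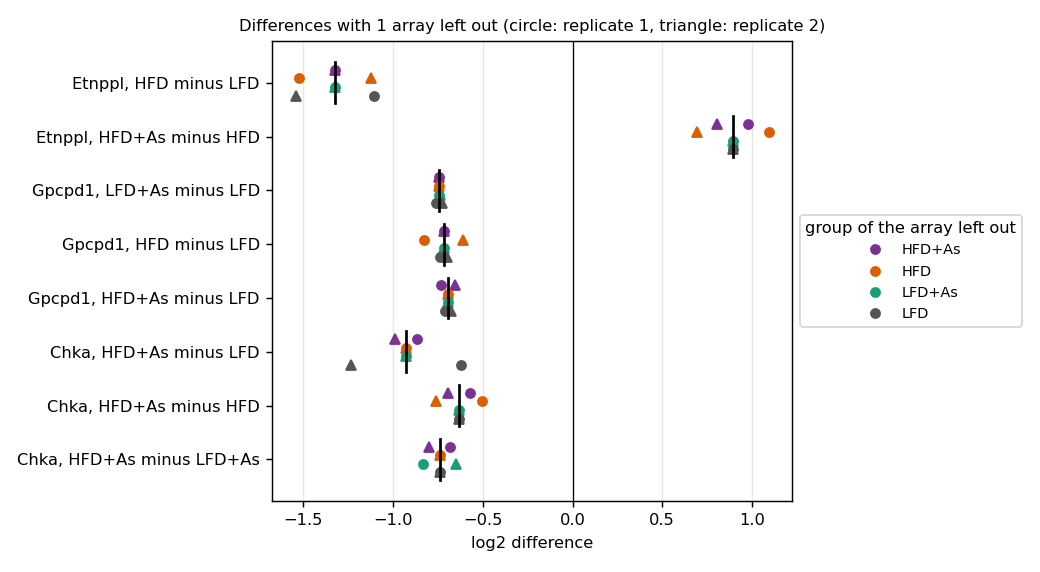
Log2 differences of Etnppl, Gpcpd1 and Chka (x axis) recomputed with each of the 8 arrays left out. Colour gives the group and shape the replicate of the array left out, and the vertical bar is the value with all arrays. Chka in HFD+As minus LFD ranges from -1.23 to -0.62. Gpcpd1 in LFD+As minus LFD ranges from -0.76 to -0.73. That difference chose Gpcpd1, so its narrow range is no support for it and is not compared with that of Chka.

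Chka and Chkb encode the choline kinases alpha and beta, which make phosphocholine in the first step of the Kennedy pathway and also act on ethanolamine. Chka lies at chr19:3851585-3894369. Its signals were 9.14 and 9.26 in the HFD+As pools, 9.97 and 9.71 in the HFD pools, 9.86 and 10.04 in the LFD+As pools, and 10.44 and 9.83 in the LFD pools. Both HFD+As pools lay below every other pool, the 3 remaining groups overlapped, and the LFD pools were 0.61 apart. The residual SD of Chka was 0.25, against a median of 0.12 over tested genes. Its standard errors, moderated over all tested genes, are therefore smaller than those from its own pools alone. Chka fell in HFD+As relative to LFD by 0.93 (SE 0.17, 1.9-fold, limma adjusted p = 0.00635) and relative to LFD+As by 0.74 (SE 0.17, adjusted p = 0.0252). The difference from HFD was -0.63 (SE 0.17, adjusted p = 0.0585), which missed the threshold. Without arsenite the high-fat diet gave -0.30 (SE 0.17, adjusted p = 0.601), and arsenite on the low-fat diet -0.19 (adjusted p = 1.0). Averaged over both waters, high-fat feeding gave -0.52 (SE 0.12, adjusted p = 0.0267). The interaction, -0.45 (SE 0.24, adjusted p = 0.422, and -0.26 with quantile normalization), was not called, so the arsenite effect was not shown to differ between diets.

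The Chka calls depended on single arrays. The call against LFD was lost without LFD replicate 1 (-0.62, adjusted p = 0.0571) and without HFD+As replicate 1 (-0.87, adjusted p = 0.0596). Against LFD+As it was lost without LFD+As replicate 2 (-0.65, adjusted p = 0.18) and without HFD+As replicate 1 (-0.68, adjusted p = 0.178). The difference from HFD passed without either LFD array (-0.63, adjusted p = 0.0486), where the group means compared are the same, and without HFD replicate 2 (-0.76, adjusted p = 0.0405). Without HFD replicate 1 it was -0.50 (adjusted p = 0.463). The call for the high-fat average was lost without LFD replicate 1 (-0.37, adjusted p = 0.0706), LFD+As replicate 2 (-0.47, adjusted p = 0.0869), HFD replicate 2 (-0.45, adjusted p = 0.123) or HFD+As replicate 1 (-0.49, adjusted p = 0.0996), and when all genes were tested without the filter. With the span trend removed Chka stood at -0.86 against LFD (adjusted p = 0.0116) and -0.66 against LFD+As (adjusted p = 0.0465). Quantile normalization gave -0.79 (adjusted p = 0.0141) and -0.59 (adjusted p = 0.0515), and -0.46 against HFD (adjusted p = 0.149).

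The Chka promoter window is shown to set a CpG-rich member beside Etnppl. It lies at chr19:3851523-3851822 on the plus strand (RefSeq, GRCm38.p6) and is built on a start at base 3851773, which lies inside the gene's span given above. Positions are counted from that start, and capitals mark matches to the GC box and the CCAAT box on either strand.
Chka: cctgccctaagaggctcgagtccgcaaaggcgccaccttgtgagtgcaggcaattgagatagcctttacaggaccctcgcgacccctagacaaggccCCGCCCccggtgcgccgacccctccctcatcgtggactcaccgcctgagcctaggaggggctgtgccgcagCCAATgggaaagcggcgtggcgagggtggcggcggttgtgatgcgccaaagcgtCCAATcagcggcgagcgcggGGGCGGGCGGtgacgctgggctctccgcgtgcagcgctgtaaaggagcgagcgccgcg
The window holds 33 CpG sites, more than 91.4% of all windows have, and 3 GC boxes. Of these, 2 overlap on the plus strand and begin at positions -8 and -4, the second running across the window's start. It also holds 2 CCAAT boxes, which begin 82 and 28 bases before the window's start. Among the other members with a window, Etnk1 had 38 CpG sites, Chpt1 29, Chkb 14 and Pemt 3 and 2 in its 2 windows, while the 3 windows of Pcyt1a had 33, 29 and 18. In all, 7 of the 9 measured members had an entry.

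Chkb and Etnk1 showed no called difference. The Chkb cluster (gene at chr15:89426349-89429927) is also annotated to Gm44502, a readthrough transcript of Chkb and Cpt1b, and the signals of the 2 cannot be told apart. Its signals were 7.77 and 7.38 in the HFD+As pools, 7.83 and 7.51 in the HFD pools, 7.59 and 7.80 in the LFD+As pools, and 7.84 and 7.47 in the LFD pools. All 4 groups overlapped. HFD+As minus LFD was -0.08, with a 95% interval of -0.44 to 0.28 (adjusted p = 0.796), and its sign turned with quantile normalization (0.03), while removing the span trend gave -0.17. Etnk1 (chr6:143166866-143208546) encodes an ethanolamine kinase, which makes the phosphoethanolamine that ETNPPL breaks down. It gave 8.88 and 9.18 in the HFD+As pools, 9.60 and 9.27 in the HFD pools, 9.29 and 9.38 in the LFD+As pools, and 9.36 and 8.98 in the LFD pools. The HFD+As pools lay below the HFD and LFD+As pools and overlapped the LFD pools. The differences were -0.40 from HFD (SE 0.16, adjusted p = 0.133), -0.31 from LFD+As (adjusted p = 0.227) and -0.14 from LFD (adjusted p = 0.596). Quantile normalization gave -0.22 for the difference from HFD, -0.15 for that from LFD+As and -0.0084 for that from LFD.

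Pcyt1a and Pcyt2 encode the cytidylyl-transferases that activate phosphocholine and phosphoethanolamine with CTP, the step that sets the rate of each branch. Pcyt1a (chr16:32430921-32475065) had signals of 9.06 and 9.32 in the HFD+As pools, 9.64 and 9.40 in the HFD pools, 9.54 and 9.65 in the LFD+As pools, and 9.66 and 9.29 in the LFD pools. As for Etnk1, the HFD+As pools lay below those of HFD and LFD+As, and LFD replicate 2 lay among them. The difference was -0.40 from LFD+As (SE 0.15, adjusted p = 0.0961), -0.33 from HFD (adjusted p = 0.18) and -0.28 from LFD (adjusted p = 0.22), and none passed. With quantile normalization these were -0.25, -0.15 and -0.15. Pcyt2 (chr11:120610062-120617947) had 10.80 and 10.78 in the HFD+As pools, 11.16 and 11.07 in the HFD pools, 10.93 and 11.04 in the LFD+As pools, and 10.97 and 10.85 in the LFD pools. On the deposited scale HFD+As was lowest and HFD highest, with no overlap between HFD+As and any other group. The difference from HFD was -0.33 (SE 0.11, 95% interval -0.57 to -0.08, adjusted p = 0.098), and -0.20 with quantile normalization. Those from LFD+As (-0.19, adjusted p = 0.291) and from LFD (-0.12, adjusted p = 0.526) were not called. With quantile normalization these 2 were -0.06 and -0.0012. HFD minus LFD was 0.21 (SE 0.11, adjusted p = 0.575).

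Chpt1 encodes a cholinephosphotransferase, which completes phosphatidylcholine from CDP-choline and diacylglycerol, and lies at chr10:88469513-88503970. Its signals were 12.13 and 12.13 in the HFD+As pools, 12.18 and 11.98 in the HFD pools, 12.37 and 12.40 in the LFD+As pools, and 12.32 and 12.29 in the LFD pools. Each high-fat pool lay below each low-fat pool, while HFD+As and HFD overlapped. The average over both waters was -0.24 (SE 0.08, 95% interval -0.41 to -0.06, adjusted p = 0.0876) and missed the threshold, which it passed under eBayes with trend and robust (adjusted p = 0.0481). HFD minus LFD was -0.22 (SE 0.11, adjusted p = 0.536), and HFD+As minus LFD+As was -0.26 (SE 0.11, adjusted p = 0.164) and -0.12 with quantile normalization. HFD+As minus LFD was -0.17 (SE 0.11, adjusted p = 0.336), and -0.05 with quantile normalization.

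Pemt encodes phosphatidylethanolamine N-methyltransferase, the enzyme of the methylation route that is known mainly from hepatocytes, and lies at chr11:59970614-60046561. Its signals were 12.63 and 12.71 in the HFD+As pools, 12.41 and 12.56 in the HFD pools, 12.36 and 12.51 in the LFD+As pools, and 12.47 and 12.52 in the LFD pools. The HFD+As pools were the highest and overlapped no other group, and the other groups overlapped each other. The difference was 0.24 from LFD+As (SE 0.12, adjusted p = 0.205), 0.18 from HFD (adjusted p = 0.34) and 0.17 from LFD (adjusted p = 0.35). None passed the test, and the 95% interval for HFD+As minus LFD was -0.08 to 0.42. With the span trend removed these differences were 0.35, 0.28 and 0.28, and again none passed. Pemt was the sole member with a positive value for HFD+As minus LFD on the deposited scale, while with quantile normalization 2 of the 9 were positive.

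**Figure D3:**
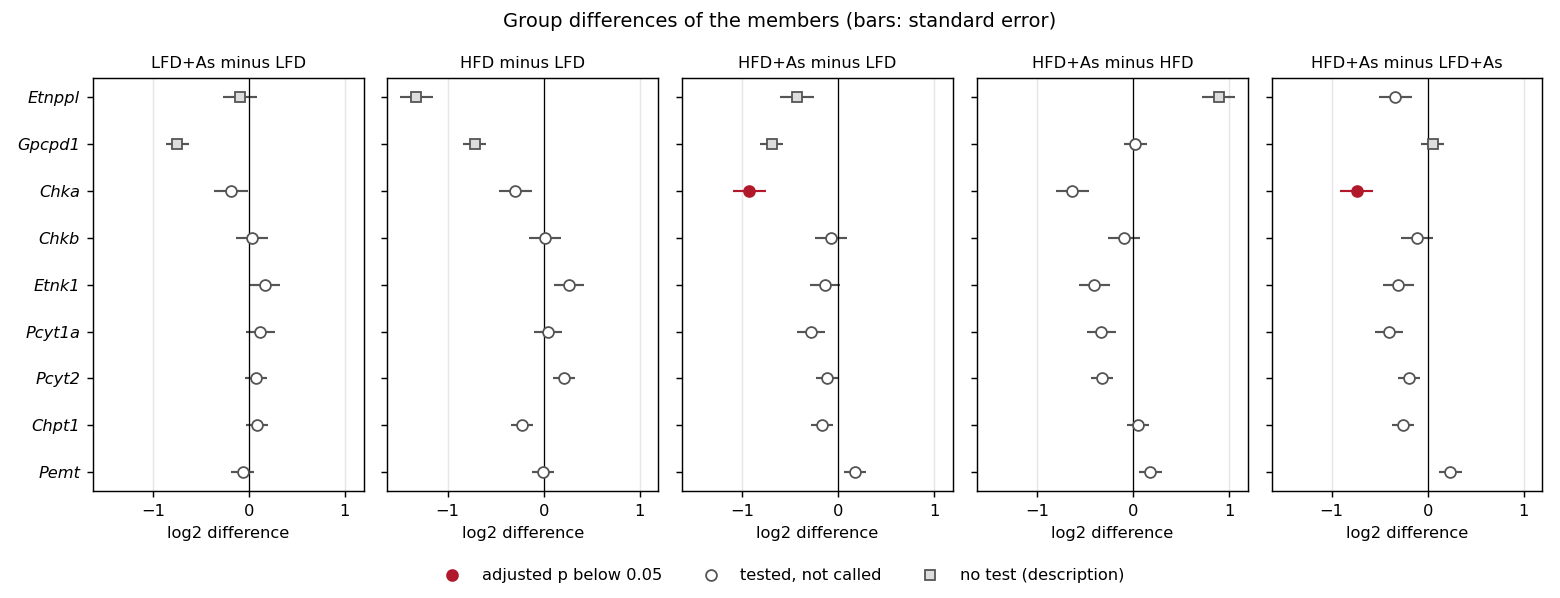
Log2 differences of the 9 members (x axis, log2 units) in 5 comparisons, with bars of 1 standard error. Filled red circles passed an adjusted p of 0.05, open circles were tested and did not, and grey squares are descriptions without a test. Chka, at -0.93 and -0.74, is the sole filled point, in HFD+As minus LFD and in HFD+As minus LFD+As.

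All 9 members passed the filter on dim genes. Counts of members called at an adjusted p of 0.05 are set here beside the share of all 11963 tested genes called. Calls of Etnppl and Gpcpd1 that share arrays with the comparison that chose them are counted, and nothing is read from them. With arsenite alone (LFD+As minus LFD) the 1 call was Gpcpd1, which this comparison chose. The 0.0669% of all genes called there is therefore no measure for it. With the high-fat diet alone (HFD minus LFD) the 2 calls were Etnppl, chosen there, and Gpcpd1, chosen on the same LFD arrays. The 0.460% of all genes called there is likewise no measure for them. With both exposures (HFD+As minus LFD) Gpcpd1 and Chka were called lower and no member higher, while 16.0% of all genes were called, 12.4% lower and 3.59% higher. That share was 15.0% with quantile normalization and 11.5% with the span trend removed, and both members were called there too. The Gpcpd1 call rests on the LFD arrays that chose it. Against HFD, 1 member of HFD+As livers was called (Etnppl, higher), while 3.63% of all genes were called. The Etnppl call rests on the HFD arrays that chose it. Against LFD+As 1 member was called (Chka, lower), beside 10.3%. The high-fat effect averaged over both waters called Etnppl, Gpcpd1 and Chka lower, while 7.63% of all genes were called. Etnppl and Gpcpd1 were chosen on arrays that this average uses. The arsenite effect averaged over both diets called 0 of 9, beside 0.560%. The interaction called 0 of 9 members and 0 of all genes (percent 0), while 1659 genes had an unadjusted p under 0.05. The median of the 9 members was -0.17 for HFD+As minus LFD, against -0.095 over all genes, and with quantile normalization it was -0.048, against -0.005. That median includes Etnppl and Gpcpd1, which were chosen for lying below the same LFD arrays.

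Likeness between members was read as Pearson r over the 8 arrays, and the 3 highest values were 0.91 between Etnk1 and Pcyt1a, 0.86 between Chka and Pcyt1a and 0.83 between Etnk1 and Pcyt2, while Pemt and Chka had r of -0.71. Etnppl and Gpcpd1, the breakdown genes, had r of 0.48. These 8 arrays share 4 groups and the array-wide span trend, so the values are a description. By the same measure the tested genes most like Etnppl were Cyp2c54 (0.97), Pparg (0.96), Npr3 (0.95), Slc16a7 (0.95) and Afmid (0.94). Those most like Gpcpd1 were Gpr146 (0.97), Nop53 (0.94), Cdk5r2 (0.94), Erf (0.94) and Gm10461 (0.93). Gpr146, an orphan receptor gene, had signals of 9.78 and 9.71 in the HFD+As pools, 9.93 and 9.81 in the HFD pools, 9.67 and 9.70 in the LFD+As pools, and 10.45 and 10.37 in the LFD pools. As for Gpcpd1, both LFD pools lay above all others, a pattern that choosing Gpr146 by its r with Gpcpd1 favours.

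Genes around these members were read from a wider list of 75 genes of choline and ethanolamine uptake, phospholipid synthesis and breakdown, choline oxidation, methyl supply, phosphatidylcholine transfer and sphingomyelin synthesis. Of these, 69 had a cluster and 60 were tested. With either exposure alone 0 of 60 passed limma's test, while 1 had an unadjusted p under 0.05 for LFD+As minus LFD and 4 had one for HFD minus LFD. The nearest to a call were Gde1 for LFD+As minus LFD (0.31, adjusted p = 1.0) and Lipg for HFD minus LFD (0.49, adjusted p = 0.11). Gde1 encodes a glycerophosphodiesterase and Lipg endothelial lipase, a phospholipase of lipoproteins. With both exposures 22 of 60 were called relative to LFD, 20 lower and 2 higher (Gde1 and Phospho2), beside 16.0% of all tested genes, 12.4% lower and 3.59% higher. The list's median was -0.29 (-0.18 with quantile normalization), against -0.095 over all genes. The number called was 13 with the span trend removed (11.5% of all genes) and 16 with quantile normalization (15.0%). It was 1 (Gde1) without LFD replicate 1, beside 357 of 11963 genes, and 1 (Gde1) without HFD+As replicate 1, beside 206. It was 8 without LFD replicate 2, beside 776, and 13 without HFD+As replicate 2, beside 1638.

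**Figure D4:**
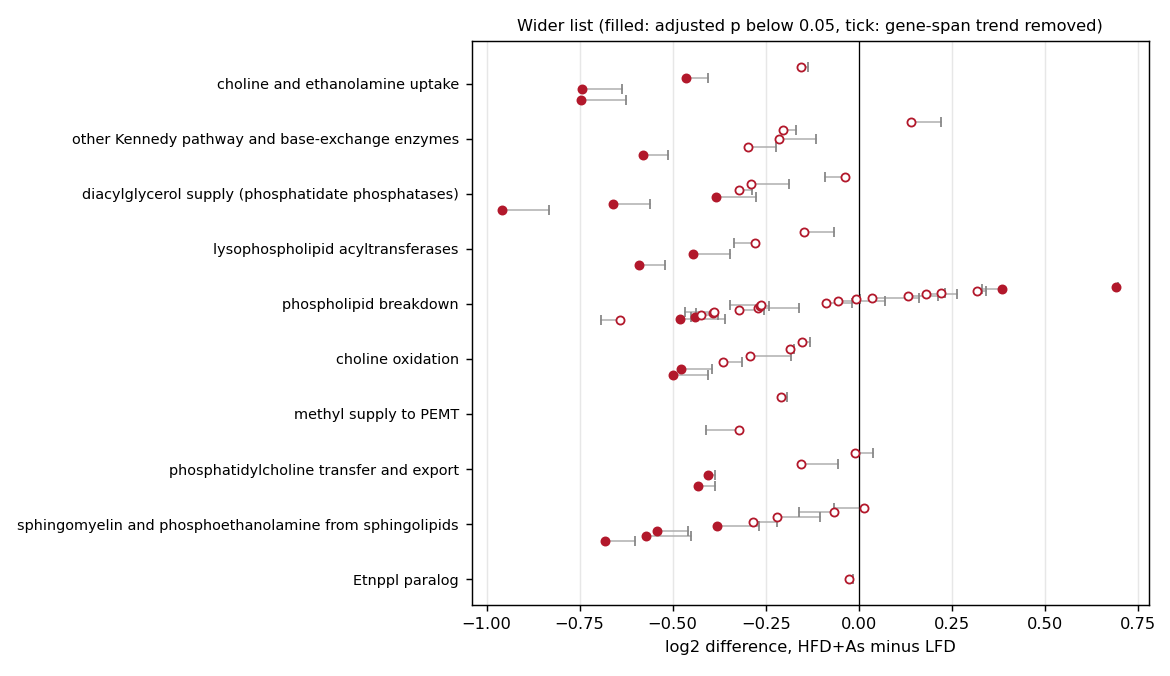
Log2 differences for HFD+As minus LFD (x axis, log2 units) of the 60 tested genes of the wider list, by group (y axis). Filled circles passed an adjusted p of 0.05, open circles did not, and the tick joined to each circle is its value with the gene-span trend removed. Of the filled points 20 lie left of 0 and 2 right, with Lpin1 lowest at -0.96 and Gde1 highest at 0.69.

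Gde1 had 9.98 and 9.93 in the HFD+As pools, 9.57 and 9.68 in the HFD pools, 9.57 and 9.58 in the LFD+As pools, and 9.34 and 9.19 in the LFD pools. It was highest with both exposures, and the LFD pools lay below all others. Gde1 rose by 0.69 in HFD+As relative to LFD (SE 0.11, adjusted p = 0.00437), a call that held with any 1 array left out and under all alternatives of scale and span. The enzyme acts on glycerophosphodiesters, the class of substrate that GPCPD1 also cleaves.

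Of the 4 tested genes listed under choline uptake, 3 were called lower in HFD+As than in LFD: Slc44a1, Slc44a2 and Slc44a3. Slc44a1, which encodes a choline transporter of the plasma membrane and mitochondria, had 9.77 and 10.05 in the HFD+As pools, 10.61 and 10.48 in the HFD pools, 10.56 and 10.70 in the LFD+As pools, and 10.77 and 10.55 in the LFD pools. Both HFD+As pools lay below all others. Relative to LFD it fell by 0.75 (SE 0.13, adjusted p = 0.00555), relative to HFD by 0.63 (adjusted p = 0.0307) and relative to LFD+As by 0.72 (adjusted p = 0.0158). These values are from the brighter of its 2 clusters. The mean of both gave -0.60 against LFD, still called, and -0.57 against HFD, not called. Slc44a3, of the same family, fell by 0.74 relative to LFD (SE 0.14, adjusted p = 0.00711), by 0.82 relative to HFD (adjusted p = 0.0202) and by 0.74 relative to LFD+As (adjusted p = 0.0168). The calls of Slc44a1, Slc44a2 and Slc44a3 against LFD were lost without LFD replicate 1 and without HFD+As replicate 1. Quantile normalization left Slc44a1 and Slc44a3 called against LFD at -0.63, and uncalled against HFD at -0.49 and -0.65. With the span trend removed they stayed called against LFD, at -0.62 and -0.64. Against HFD Slc44a3 stayed called at -0.72, and Slc44a1, at -0.54, did not.

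The genes called lower in HFD+As than in LFD livers are set out by group, beside the 12.4% of all tested genes called lower. They were 3 of 6 tested genes of diacylglycerol supply, 1 of 5 other Kennedy pathway and base-exchange genes, 2 of 4 lysophospholipid acyltransferases, 3 of 20 genes of phospholipid breakdown (with 2 higher), 2 of 6 of choline oxidation, 2 of 4 of phosphatidylcholine transfer and export, and 4 of 8 of sphingomyelin and sphingolipid metabolism. None of the 2 tested genes of methyl supply was called, nor was the Etnppl paralog Phykpl. Lpin1, which encodes the phosphatidate phosphatase lipin 1, had 8.54 and 8.79 in the HFD+As pools, 9.79 and 9.60 in the HFD pools, 8.93 and 9.68 in the LFD+As pools, and 9.62 and 9.62 in the LFD pools. The HFD+As pools were lowest, and LFD+As replicate 1 lay nearest to them. Lpin1 fell by 0.96 relative to LFD (SE 0.19, adjusted p = 0.0081) and by 1.03 relative to HFD (adjusted p = 0.0239), and it was the single gene of the list called for arsenite averaged over both diets (-0.67, adjusted p = 0.0467, beside 0.560% of all genes). Selenoi, the ethanolamine phosphotransferase that completes phosphatidylethanolamine, fell by 0.58 relative to LFD (SE 0.13, adjusted p = 0.0106) and by 0.56 relative to LFD+As (adjusted p = 0.0239). Samd8, which encodes a ceramide phosphoethanolamine synthase, fell by 0.68 relative to LFD (SE 0.14, adjusted p = 0.00903) and by 0.59 relative to LFD+As (adjusted p = 0.0261). All 3 calls against LFD were lost without LFD replicate 1 and without HFD+As replicate 1, and those of Lpin1 and Selenoi also without LFD replicate 2. The Lpin1 call for the arsenite average was lost with quantile normalization and with the span trend removed. Against LFD the calls of Lpin1 (-0.83), Selenoi (-0.51) and Samd8 (-0.60) held with the span trend removed.

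Against HFD 4 of the 60 were called, all lower, beside 3.63% of all genes. They were Slc44a3, Lpin1, Slc44a1 and Pld1, the phospholipase D1 gene, which fell by 0.66 (SE 0.14, adjusted p = 0.0307). With the span trend removed Lpin1 stayed called against HFD (-0.93) and Pld1 did not (-0.57). None of the 60 was called there by limma with quantile normalization, without HFD replicate 1 or without HFD+As replicate 1. Against LFD+As 12 of the 60 were called, 11 lower and 1 higher, beside 10.3% of all genes. Among them Phospho1, which encodes a phosphatase of phosphocholine and phosphoethanolamine, fell by 0.86 (SE 0.22, adjusted p = 0.0294) and Pld1 by 0.56 (SE 0.14, adjusted p = 0.0287). No gene was called there without LFD+As replicate 2 or without HFD+As replicate 1, 5 were called with quantile normalization and 4 with the span trend removed. Of all 11963 tested genes, 641 were called for HFD+As minus LFD+As with quantile normalization and 448 with the span trend removed. Averaged over both waters, high-fat feeding called 7 of the 60, beside 7.63% of all genes: Gde1 was higher (0.37, adjusted p = 0.0194) and 6 were lower, among them Sgms2, a sphingomyelin synthase gene (-0.36, adjusted p = 0.0362). None of the 60 was called for that average without LFD replicate 2, LFD+As replicate 2, HFD replicate 2 or HFD+As replicate 1, and 11 were called with quantile normalization. With quantile normalization 1060 of all 11963 tested genes were called for the high-fat average. For the interaction, Slc44a3 (-0.82, adjusted p = 0.177) and Pld1 (-0.74, adjusted p = 0.191) had the smallest p-values and were not called.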

How the data were processed

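The deposited table gives 1 log2 signal for each transcript cluster on each array. The authors made these values from the array scans with Expression Console 1.0, per the submitters' processing notes, and how that software corrected, normalized and summarised the probes is not given in the sources used here. Of 35556 clusters 21789 had 1 symbol in the platform annotation, and the cluster with the highest mean stood for a gene. The 11963 genes with the highest means, 60% of 19939, were tested.

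A limma 3.58.1 fit (R 4.3.3) of the 4 group means gave differences with moderated standard errors. Moderation draws each gene's variance toward a value shared by all tested genes (prior degrees of freedom 9.32, residual 4). Its p-values were Benjamini-Hochberg adjusted over all tested genes, with a threshold of 0.05, and every adjusted p in the text is from such a fit. Tables and figures used pandas 2.3.3 and matplotlib 3.10.9 in Python 3.11.15. The fit was tested on simulated data. The span trend was removed from each array by loess (span 0.3).

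The members, the wider list and the marker lists were chosen with earlier results of these data known. Every member is named, and of the wider list, per comparison, up to 6 called genes with the smallest adjusted p or, where none was called, the 2 with the smallest p. The genes most like Etnppl and Gpcpd1 are the 5 with the highest Pearson r among tested genes. Mice were split into pools at random, so equal replicate numbers pair nothing. With 2 arrays per group, the number of arrays limits the precision.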

Additional observations from a re-analysis of the deposited data

How the results depend on the processing

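Of 72 member values (9 members in 8 comparisons), 22 changed sign under some alternative, and 0 of these were among the calls reported with a p-value. The counts of members in this section include calls of Etnppl and Gpcpd1 on arrays that chose them, and nothing is read from those. Testing all genes, without the filter, called 0 members for LFD+As minus LFD, 1 for HFD minus LFD, 0 for HFD+As minus HFD, 0 for HFD+As minus LFD+As and 1 for the high-fat average. Quantile normalization called 0 for LFD+As minus LFD and 0 for HFD+As minus LFD+As. Testing the 40% of genes with the highest mean, or eBayes with trend and robust, called 2 for HFD+As minus HFD, Etnppl and Chka. Leaving out 1 array at a time, which assumes that the lone pool left varies like the other groups, gave 0 to 1 members for LFD+As minus LFD, 0 to 2 for HFD minus LFD, 1 to 2 for HFD+As minus LFD, 0 to 2 for HFD+As minus HFD, 0 to 1 for HFD+As minus LFD+As, 1 to 3 for the high-fat average and 0 to 1 for the arsenite average. Among the values printed above, signs turned for Chkb in HFD+As minus LFD with quantile normalization (0.0259) and with 1 array left out (-0.277 to 0.12). With 1 array left out they also turned for Etnk1 in HFD+As minus LFD (-0.332 to 0.0477), Etnppl (-0.309 to 0.123) and Chka (-0.493 to 0.118) in LFD+As minus LFD, Chka in HFD minus LFD (-0.601 to 0.0102) and Gpcpd1 in HFD+As minus HFD (-0.0862 to 0.136). The cause was not tested.

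Over all genes, 1909 were called for HFD+As minus LFD, and 1084 without the filter, 206 without HFD+As replicate 1 and 1377 with the span trend removed. For HFD+As minus HFD these were 434, 29, 24 and 156, and 28 with quantile normalization, 749 with trend and robust moderation and 223 with the replicate block. For HFD+As minus LFD+As they were 1227, 165, 31 and 448, and 641 with quantile normalization. For HFD minus LFD there were 55, against 13 without the filter and 14 with quantile normalization. With 1 array left out, limma called 0 to 72 for HFD minus LFD (0 without LFD replicate 1), 206 to 2050 for HFD+As minus LFD, 24 to 1119 for HFD+As minus HFD, 17 to 1481 for HFD+As minus LFD+As (17 without LFD+As replicate 2), 87 to 1495 for the high-fat average (87 without HFD replicate 2), 0 to 26 for LFD+As minus LFD, 1 to 145 for the arsenite average (1 without LFD replicate 1) and 0 to 23 for the interaction. The high-fat average called 913, against 172 without the filter and 596 with the span trend removed. LFD+As minus LFD called 8, against 1 and 4, and the arsenite average 67, against 8 and 10, without the filter and with quantile normalization. The arsenite average also called 39 with the span trend removed and 128 with trend and robust moderation, and the interaction called 17 with that moderation and 6 among the 40% of genes with the highest mean. The alternatives for the wider list were added after seeing the data. Of that list, 10 genes were called for HFD+As minus LFD without the filter, 0 for HFD+As minus HFD and 2 for HFD+As minus LFD+As.

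With the replicate block the members called were as before, 2 for HFD+As minus LFD and 1 for HFD+As minus LFD+As, and of the genes named, Sgms2 in the high-fat average was no longer called (-0.36). Deviations of same-numbered arrays correlated at -0.217 to 0.180 over the 6 pairs of groups.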
